A study of Homo sapiens with 16 samples.

Results

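The YAP/TEAD target genes described here are 10 genes of MDA-MB-231 cells, a triple-negative human breast carcinoma cell line. They were taken by symbol from the 19468 genes of the expression table: CTGF, CYR61, ANKRD1, F3, NT5E, CRIM1, AMOTL1, AMOTL2, AJUBA and PTPN14. CTGF and CYR61 are the symbols the table uses for CCN2 and CCN1. The measurement was RNA-seq of total RNA depleted of ribosomal RNA, in 4 groups of 4 libraries. Ancestral cells, the parental line, were cultured on soft ECM or on stiff ECM, polyacrylamide gels carrying type I collagen with a Young's modulus of 1 kPa and 308 kPa. Soft-selected cells had been passaged for 75 d on soft ECM and were measured there, and stiff-selected cells had been passaged for 75 d on stiff ECM and were measured there. All cells were labelled WT, so none carried an engineered change. The column names of the stiff libraries give 3 kPa in place of 308 kPa. The time that ancestral cells spent on the gels before RNA was taken, and whether the 4 libraries of a group came from separately kept lines, were not found in the labels or methods. The p-values below therefore measure the spread between libraries, which may be technical.

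YAP and its paralog TAZ are transcriptional coactivators that enter the nucleus when cells spread and build contractile actin on a stiff substrate, and that are held in the cytoplasm when the Hippo kinases LATS1 and LATS2 phosphorylate them. They do not bind DNA themselves but are brought to enhancers and promoters by the TEAD factors, often beside AP-1. Their targets include secreted matricellular proteins, cell surface proteins, and scaffold proteins of junctions that bind YAP or LATS and so feed back on the pathway.

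The short DNA word read by TEAD factors is visible upstream of some of these genes. RefSeq promoters were found for 8 of the 10 genes, all except CYR61 and CRIM1. The 250 bases before each transcription start were searched on both strands for GGAATG, the core TEAD motif. They were also searched for TGANTCA, a loose form of the AP-1 motif with any base (N) in the middle. The 3 promoters that held the TEAD motif are printed 5′ to 3′ along the gene's own strand, with the motif in capitals. They lie on the minus strand of GRCh38.p14, CTGF at chr6:131951373-131951622, ANKRD1 at chr10:90921088-90921337 and PTPN14 at chr1:214551603-214551852. The expression table was made on another build, hg19, so that only these sequences, matched by gene, were taken from GRCh38.p14.
CTGF: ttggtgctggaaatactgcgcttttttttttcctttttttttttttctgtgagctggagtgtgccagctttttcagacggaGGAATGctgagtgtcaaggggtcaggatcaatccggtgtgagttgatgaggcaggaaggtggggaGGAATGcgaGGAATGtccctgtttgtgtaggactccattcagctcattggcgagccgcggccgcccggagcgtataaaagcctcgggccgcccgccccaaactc
ANKRD1: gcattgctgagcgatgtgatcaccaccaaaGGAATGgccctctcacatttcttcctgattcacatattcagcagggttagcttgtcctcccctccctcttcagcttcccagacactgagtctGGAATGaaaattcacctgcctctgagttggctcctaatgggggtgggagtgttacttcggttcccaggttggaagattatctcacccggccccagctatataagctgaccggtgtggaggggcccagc
PTPN14: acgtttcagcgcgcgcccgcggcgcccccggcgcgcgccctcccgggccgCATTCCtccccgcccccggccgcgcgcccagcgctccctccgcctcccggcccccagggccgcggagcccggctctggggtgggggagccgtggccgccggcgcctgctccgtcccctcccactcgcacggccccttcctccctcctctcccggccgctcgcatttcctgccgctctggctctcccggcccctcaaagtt
In CTGF the motif stood 3 times, starting 169, 104 and 95 bases before the start, the last pair 9 bases apart. In ANKRD1 it stood 2 times, 220 and 128 bases before the start. In PTPN14 it stood once, at 200 bases, on the opposite strand, where it reads CATTCC in the printed sequence. The motif was found in 37.5% of the members with a promoter, in 30% of the 10 other YAP/TEAD target genes with one, and in 11.9% of all 27305 promoters. More than 1 copy, as in CTGF and ANKRD1, was found in 0.963% of all promoters. Matches to TGANTCA did not overlap with those of GGAATG. They were found in F3, starting 223 (TGAATCA) and 210 (TGAGTCA) bases before the start, and in ANKRD1, at 195 bases (TGATTCA). With any middle base allowed, a match was found in 6.6% of all promoters, and stricter forms of the motif were not counted. A match is a description of letters in this window, and no match says nothing about binding elsewhere.

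Expression is given as FPKM, fragments scaled by gene length and by the total of the library, so that levels can be compared between genes per length. Fold changes and tests are on log2(FPKM + 1), from limma, for the 12604 genes that reached 1 FPKM in 4 or more libraries, and a gene was called at an adjusted p under 0.01. All 10 members were tested. Between 34284789 and 55473000 reads per library were recovered from the values, and each member had from 1880 to 50893 reads in a library. Selected libraries had 34284789 to 44279011 reads and ancestral libraries 43475899 to 55473000, and their names have different prefixes, so that whatever the prefix stands for cannot be told apart from selection. Soft and stiff libraries within ancestral or within selected cells share a prefix. Of 5 markers expected to be present in the line, 4 were: VIM, CD44, AXL and KRT18 were expressed in every library and SPARC had at most 0.72 FPKM. Of those expected to be low, ESR1 and PGR were below 0.1 FPKM in every library and CDH1 had at most 0.687. EPCAM, also expected to be low, had 7.04 to 14.1 FPKM. The luminal list, which holds these genes, summed to 339 to 538 FPKM, mostly from KRT19 and CLDN4. Fibroblast markers summed to 4.16 to 11.8 FPKM with DCN below 0.1, and blood markers to 62.6 to 153 FPKM, nearly all from CD68, with PTPRC below 0.1. These sums differed between the groups, and their part in the results below was not tested. Soft-selected replicate 2 stood farthest from its group, with a root mean square deviation of 0.190 in log2 units over all tested genes (0.077 to 0.168 in the other 15 libraries).

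All 10 genes were well expressed, above the median tested gene (21.3 FPKM) in every library. CYR61 had the highest level, with a mean of 592 FPKM over 16 libraries, at the 98.8 percentile of tested genes. F3 followed with 317 FPKM, then NT5E with 185, CTGF with 169, CRIM1 with 125 and PTPN14 with 102. AMOTL1 (87.7 FPKM), ANKRD1 (85.2 FPKM), AJUBA (58.4 FPKM) and AMOTL2 (46.7 FPKM, at the 73.3 percentile) were lower. The ratio of the highest to the lowest library ran from 1.33 for AMOTL1 to 3.1 for ANKRD1, so that none of the genes was switched on or off. Stiff-selected cells had the highest group mean in 6 genes, ancestral cells on stiff ECM in 3 and soft-selected cells in 1. The lowest mean was in ancestral cells on soft ECM in 5 genes and in soft-selected cells in the other 5.

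**Figure D1:**
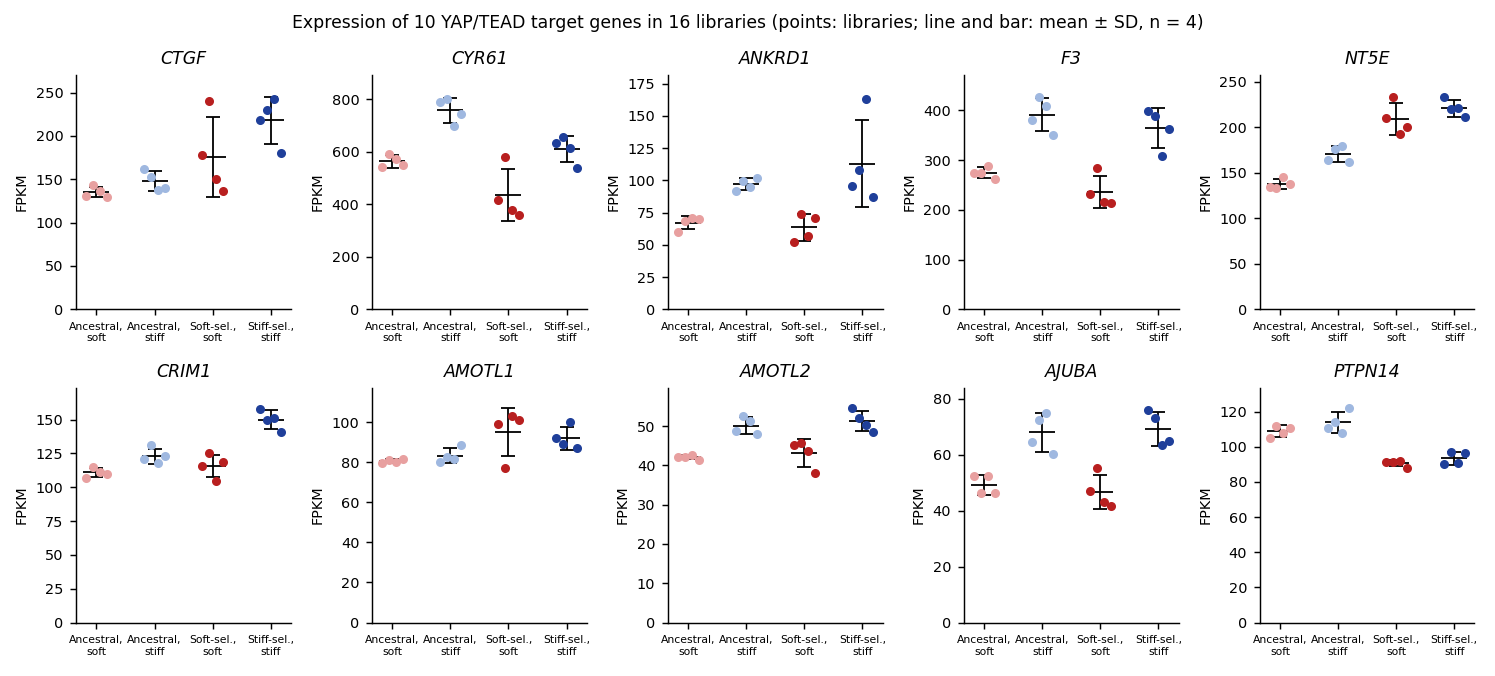
FPKM (y axis, from 0) of each of the 10 genes in the 4 groups (x axis), with 1 point per library and the mean ± SD (n = 4) as a line and bar. ANKRD1, F3, AMOTL2 and AJUBA have every soft library below every stiff library, whereas NT5E and PTPN14 separate selected from ancestral cells.

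CTGF and CYR61 encode secreted matricellular proteins of the same CCN family, which bind integrins and matrix. CTGF had 131, 143, 136 and 129 FPKM in the ancestral replicates 1 to 4 on soft ECM, and 162, 153, 138 and 140 on stiff ECM. In soft-selected cells it had 178, 240, 150 and 136 FPKM, and in stiff-selected cells 218, 230, 243 and 180. Every stiff-selected library was above every ancestral library, whereas soft-selected cells overlapped with all 3 other groups and had the widest spread, 176 ± 46.1 FPKM (SD, n = 4). The order of the means was stiff-selected, soft-selected, ancestral on stiff and ancestral on soft ECM, and each neighbour in that order overlapped with the next.

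CYR61 went the other way with selection. Ancestral cells had 541, 593, 574 and 548 FPKM on soft ECM and 788, 803, 700 and 743 on stiff ECM. Soft-selected cells had 415, 579, 379 and 361 FPKM and stiff-selected cells 633, 655, 614 and 539. Ancestral cells on stiff ECM were above every library of the other groups. Below them, stiff-selected cells overlapped with ancestral cells on soft ECM, and those with soft-selected cells through soft-selected replicate 2 alone.

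ANKRD1 encodes an ankyrin repeat protein found in the nucleus and, in muscle, at the sarcomere. It had 59.6, 68.3, 70.5 and 70.1 FPKM in ancestral cells on soft ECM and 91.4, 99.2, 94.8 and 102 on stiff ECM. In soft-selected cells the values were 52.5, 74.2, 57.1 and 70.8 FPKM, and in stiff-selected cells 95.4, 108, 163 and 87.3. Both soft groups lay below both stiff groups in every library, and within either ECM the ancestral and selected cells overlapped. The stiff-selected mean of 113 ± 34 FPKM (SD, n = 4) was raised by replicate 3.

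F3, NT5E and CRIM1 encode proteins of the cell surface. F3 is tissue factor, the initiator of coagulation, and had 274, 275, 289 and 262 FPKM in ancestral cells on soft ECM and 380, 426, 408 and 350 on stiff ECM. It had 232, 284, 216 and 214 FPKM in soft-selected cells and 398, 388, 308 and 363 in stiff-selected cells. The soft libraries were all below the stiff ones, and ancestral and selected cells overlapped on each ECM.

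NT5E is CD73, the enzyme that makes adenosine from AMP outside the cell. It had 135, 133, 145 and 138 FPKM in ancestral cells on soft ECM and 164, 176, 180 and 162 on stiff ECM. It had 210, 233, 193 and 200 FPKM in soft-selected cells and 234, 220, 221 and 211 in stiff-selected cells. All 8 selected libraries were above all 8 ancestral libraries, the ancestral groups did not overlap, and the selected groups did.

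CRIM1 is a transmembrane protein that binds bone morphogenetic proteins. Its values were 107, 115, 111 and 110 FPKM in ancestral cells on soft ECM and 121, 131, 118 and 123 on stiff ECM. Soft-selected cells had 116, 125, 105 and 119 FPKM and stiff-selected cells 158, 150, 151 and 141. Stiff-selected cells stood alone at the top, and the soft-selected range held that of ancestral cells on soft ECM and met that of ancestral cells on stiff ECM.

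AMOTL1, AMOTL2, AJUBA and PTPN14 encode proteins of cell junctions that act on the pathway itself. The angiomotin-like proteins AMOTL1 and AMOTL2 bind YAP and keep it out of the nucleus, AJUBA is a LIM protein that holds LATS kinases at tense junctions, and PTPN14 is a phosphatase that binds YAP. AMOTL1 had 79.5, 81, 80.2 and 81.7 FPKM in ancestral cells on soft ECM and 80, 82.8, 81.5 and 88.5 on stiff ECM. It had 98.9, 77, 103 and 101 FPKM in soft-selected cells and 92, 88.9, 100 and 87.2 in stiff-selected cells. Soft-selected replicate 2 was the lowest of all 16 libraries while the 3 others of its group were above every ancestral library, and neighbouring groups overlapped throughout.

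AMOTL2 had 42.1, 42.1, 42.7 and 41.3 FPKM in ancestral cells on soft ECM and 48.7, 52.6, 51.2 and 48 on stiff ECM. It had 45.2, 45.6, 43.6 and 38 FPKM in soft-selected cells and 54.5, 52.1, 50.2 and 48.4 in stiff-selected cells. As for ANKRD1 and F3, the ECM split the libraries and the ancestral and selected cells overlapped on each ECM. AJUBA had 52.4, 46.4, 52.3 and 46.2 FPKM in ancestral cells on soft ECM and 64.5, 72.6, 75.1 and 60.2 on stiff ECM. Its values were 47.1, 55.4, 43.1 and 41.7 FPKM in soft-selected cells and 76, 73.1, 63.4 and 65.1 in stiff-selected cells. The same split by ECM was seen, with no separation of selected from ancestral cells.

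PTPN14 had 105, 112, 108 and 111 FPKM in ancestral cells on soft ECM and 111, 114, 108 and 122 on stiff ECM. It had 91.5, 91.4, 91.8 and 88 FPKM in soft-selected cells and 90.1, 97, 90.7 and 96.3 in stiff-selected cells. All selected libraries were below all ancestral ones, and the soft and stiff groups overlapped in both.

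Separations of this kind can be set against all tested genes. Every soft library was below every stiff library for 4 members (ANKRD1, F3, AMOTL2 and AJUBA) and for 0.952% of tested genes, and the opposite held for 0 members and 1.23% of tested genes. All selected libraries were above all ancestral ones for 1 member (NT5E) and 10.8% of tested genes, and below them for 1 member (PTPN14) and 6.78% of tested genes.

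The first question was how ancestral cells differed between soft and stiff ECM. The members were lower on soft ECM: 5 of the 10 were called lower and 0 higher, where 3.87% of tested genes were called lower and 7.54% higher. The directions of the called members held under each scaling tried. The split of all genes did not, with 734 higher and 827 lower under median-of-ratios scaling and 589 and 599 under quantile normalization. F3 was 1.42-fold lower on soft ECM (log2 -0.50 ± 0.09, with ± for the SE, limma adjusted p = 0.00134), and AJUBA was 1.37-fold lower (log2 -0.45 ± 0.09, limma adjusted p = 0.00208). NT5E was 1.24-fold lower (log2 -0.31 ± 0.06, limma adjusted p = 0.00191). AMOTL2 was 1.19-fold lower (log2 -0.25 ± 0.06, limma adjusted p = 0.00591), and CYR61 was 1.34-fold lower (log2 -0.42 ± 0.11, limma adjusted p = 0.00981). In all 5 the libraries did not overlap. In bulk RNA, fewer cells that express a gene and less RNA per cell cannot be told apart.

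ANKRD1 and CRIM1 had ranges that did not overlap between ancestral cells on soft and stiff ECM but missed the threshold (ANKRD1 at log2 -0.52, limma adjusted p = 0.0136, and CRIM1 at -0.15, limma adjusted p = 0.0488). ANKRD1 was called lower there in 5 of 12 other settings and in 3 of 16 fits without 1 library, those without soft-selected replicate 2 (limma adjusted p = 0.00989), stiff-selected replicate 3 (0.00174) or stiff-selected replicate 4 (0.00914). In all, 7 of 10 members had every soft library below every stiff library, against 11.7% of tested genes, and 0 had every soft library above, against 19.8%. CTGF (log2 -0.14, 95% confidence interval -0.41 to 0.13), AMOTL1 (-0.04, -0.20 to 0.11) and PTPN14 (-0.06, -0.16 to 0.04) were not called, and their intervals leave room for a change of either sign. The median log2 fold change of the 10 members was -0.28, beside 0.03 for all tested genes. The call on CYR61 was the least stable, being kept in 3 of the 16 fits that left out 1 library, with adjusted p up to 0.0353. AMOTL2 lost its call without any 1 of the 4 ancestral libraries on soft ECM or without replicate 2 or 3 on stiff ECM (limma adjusted p up to 0.027), and AJUBA lost it without ancestral replicate 2 on stiff ECM (0.0106).

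The selected cells were compared on the ECM on which each had been kept, so that the ECM and the history of selection cannot be told apart here. Soft-selected cells on soft ECM had lower levels than stiff-selected cells on stiff ECM for 6 of 10 members and higher levels for 0, where 2.59% of tested genes were called lower and 3.85% higher; the 6 directions held under each scaling tried. ANKRD1 had the largest difference among the members, 1.73-fold lower in soft-selected cells (log2 -0.79 ± 0.14, limma adjusted p = 0.00171). F3 was 1.54-fold lower (log2 -0.62 ± 0.09, limma adjusted p = 4.3e-04) and AJUBA 1.48-fold lower (log2 -0.56 ± 0.09, limma adjusted p = 7.7e-04). In these 3 genes no soft-selected library reached a stiff-selected one. CYR61 was 1.43-fold lower (log2 -0.51 ± 0.11, limma adjusted p = 0.0048), with overlap through soft-selected replicate 2. CRIM1 was 1.29-fold lower (log2 -0.37 ± 0.05, limma adjusted p = 4.6e-04), and AMOTL2 was 1.19-fold lower (log2 -0.25 ± 0.06, limma adjusted p = 0.00845).

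In this comparison 5 of 10 members had every soft-selected library below every stiff-selected one, against 7.42% of tested genes, and 0 had every one above, against 9.60%. CTGF was at log2 -0.33 and missed the threshold (limma adjusted p = 0.0758), while NT5E (-0.08, 95% confidence interval -0.21 to 0.04), PTPN14 (-0.04, -0.14 to 0.06) and AMOTL1 (0.04, -0.12 to 0.19) had values near 0. The members' median was -0.35, beside 0.02 for all tested genes. Without soft-selected replicate 2, CTGF was also called (log2 -0.50, limma adjusted p = 0.00233) and ANKRD1 reached -0.87. AMOTL2 kept its call in 3 of the 16 fits that left out 1 library (adjusted p up to 0.0359), and CYR61 lost its call without soft-selected replicate 1, 3 or 4 or stiff-selected replicate 1, 2 or 3 (adjusted p up to 0.0209). With only these 8 libraries in the fit, 3 members were called lower. Over all tested genes that fit called 79 higher and 47 lower, where the fit of all 16 libraries called 485 and 326.

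**Figure D2:**
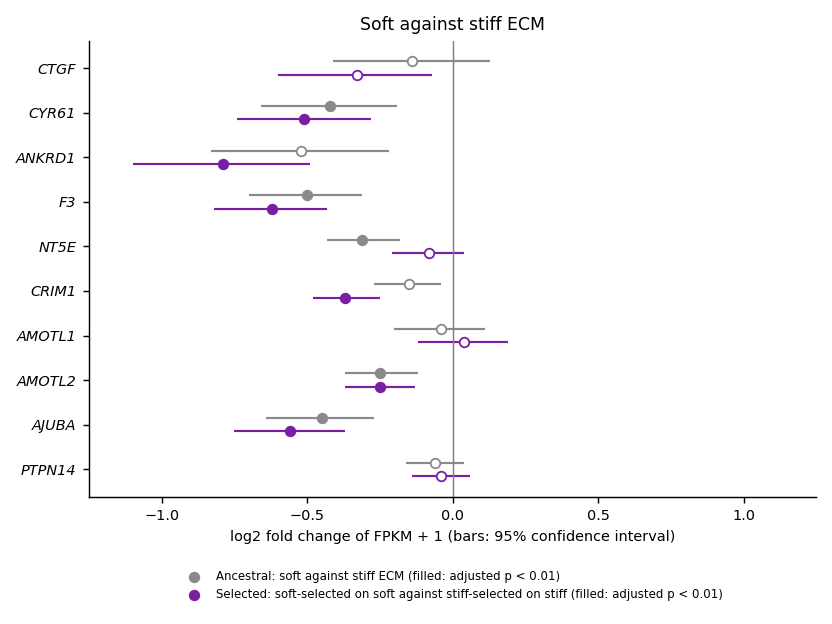
Log2 fold change of FPKM + 1 (x axis, negative where soft ECM is lower) for each gene (y axis), for ancestral cells on soft against stiff ECM (grey) and for soft-selected against stiff-selected cells, each on its own ECM (purple). Bars are 95% confidence intervals and filled points passed an adjusted p under 0.01; F3, AJUBA, AMOTL2 and CYR61 are filled and negative in both.

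F3, AJUBA, AMOTL2 and CYR61 were thus called lower on soft ECM in both comparisons. These have no library in common but share the estimate of spread, made in 1 fit of all 16 libraries. With only the groups compared in the fit, AMOTL2 (limma adjusted p = 0.0507) and CYR61 (0.0358) lost the call between selected cells. F3 and AJUBA kept both calls there. In the fit of all 16 libraries, NT5E was called in ancestral cells alone and CRIM1 and ANKRD1 in selected cells alone. A call in one comparison and not in the other does not show a difference. The test of the difference called 0 of 10 members and 0 of 12604 genes (0% of tested genes in either direction; 1627 genes at an unadjusted p under 0.05, and 98 higher and 255 lower with array weights). NT5E and CRIM1 were the 2 members under an unadjusted p of 0.05. For NT5E the log2 fold change of soft against stiff ECM was 0.22 higher in selected than in ancestral cells (95% confidence interval 0.04 to 0.40, limma adjusted p = 0.269). For CRIM1 the difference was -0.21 (-0.38 to -0.05, limma adjusted p = 0.244).

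The next question was how selected cells differed from ancestral cells on the same ECM. On soft ECM, 1 of 10 members was called higher and 2 lower in soft-selected cells, in a comparison that called 21.5% of tested genes higher and 15.4% lower. The directions of the called members held under each scaling tried. NT5E was 1.51-fold higher (log2 0.60 ± 0.06, limma adjusted p = 4.9e-07). PTPN14 was 1.2-fold lower (log2 -0.26 ± 0.05, limma adjusted p = 2.2e-04) and CYR61 1.32-fold lower (log2 -0.40 ± 0.11, limma adjusted p = 0.00526). The ranges did not overlap for NT5E (26.9% of tested genes had all selected libraries higher) and PTPN14 (18.7% had all lower). The members' median log2 fold change was -0.02, beside 0.04 for all tested genes.

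The 7 members not called on soft ECM went both ways. CTGF was at log2 0.35 (limma adjusted p = 0.0306) and AMOTL1 at 0.22 (0.0177), while F3 was at -0.22 (0.0497). ANKRD1 (-0.09), AJUBA (-0.08), CRIM1 (0.07) and AMOTL2 (0.03) had confidence intervals that included 0. Soft-selected replicate 2 decided several of these values. Without it AMOTL1 (0.32, limma adjusted p = 1.0e-04) was called higher and F3 (-0.32, limma adjusted p = 0.00441) lower, and CTGF dropped to 0.19 (limma adjusted p = 0.113). Without soft-selected replicate 4, CTGF was called (0.46, limma adjusted p = 0.00539). CYR61 lost its call in 6 of the 16 fits that left out 1 library, those without ancestral replicate 2, 3 or 4 on soft ECM or soft-selected replicate 1, 3 or 4, with adjusted p up to 0.0221, and without replicate 2 it was -0.55 (limma adjusted p = 1.5e-05).

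On stiff ECM, 3 of 10 members were called higher and 1 lower in stiff-selected cells, in a comparison that called 18.4% of tested genes higher and 10.8% lower; the 4 directions held under each scaling tried. CTGF was 1.46-fold higher (log2 0.55 ± 0.13, limma adjusted p = 0.00239), NT5E 1.3-fold higher (log2 0.37 ± 0.06, limma adjusted p = 9.6e-05) and CRIM1 1.22-fold higher (log2 0.28 ± 0.05, limma adjusted p = 5.5e-04). PTPN14 was 1.21-fold lower (log2 -0.28 ± 0.05, limma adjusted p = 1.7e-04). The ranges of these 4 did not overlap between the groups, and CYR61, at -0.31 and below the threshold (limma adjusted p = 0.0272), did not overlap either. That made 3 members with all stiff-selected libraries higher (23.3% of tested genes) and 2 with all lower (13.5%).

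ANKRD1 (0.18), F3 (-0.11), AMOTL1 (0.14), AMOTL2 (0.03) and AJUBA (0.03) had log2 fold changes with confidence intervals that included 0 on stiff ECM. The ANKRD1 value came from stiff-selected replicate 3, without which it was -0.00. The call on CTGF was lost without that same library (0.49, limma adjusted p = 0.0111). CYR61 was called without soft-selected replicate 2, which enters the shared spread (limma adjusted p = 0.00139). The members' median was 0.09, beside 0.05 for all tested genes. Because ancestral and selected libraries have different prefixes in their names, what the prefix stands for cannot be told apart from selection in any of these values.

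**Figure D3:**
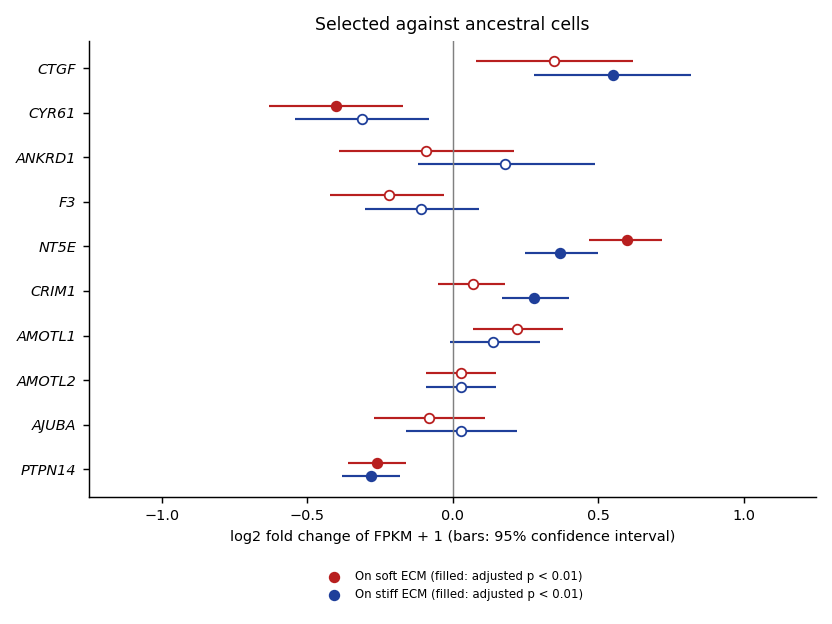
Log2 fold change of FPKM + 1 (x axis, positive where selected cells are higher) for each gene (y axis), on soft ECM (red) and on stiff ECM (blue). Bars are 95% confidence intervals and filled points passed an adjusted p under 0.01; NT5E is filled and positive and PTPN14 filled and negative on both ECMs, while CTGF and CYR61 have opposite signs.

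The 10 genes thus fell into sets when the variance of each over the 16 libraries was divided between selection, ECM, their interaction and the spread within groups, which is a description of the same values. The ECM held the largest share for AJUBA (80.4%), F3 (77.4%), AMOTL2 (76.7%), ANKRD1 (69.4%), CRIM1 (54.3%) and CYR61 (49.9%). This share sets all soft libraries against all stiff ones. In selected cells it cannot be told apart from the history of selection. Selection, which cannot be told apart from the name prefix, held the largest share for PTPN14 (86.5%), NT5E (77%) and CTGF (50.1%). In AMOTL1 the spread within groups was largest (51.2%), followed by selection (46.5%), and the ECM held 0.0225%. CYR61 and CRIM1 had sizeable shares of both, with 29.2% and 24.3% for selection. The interaction held at most 9.23%, in CRIM1.

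**Figure D4:**
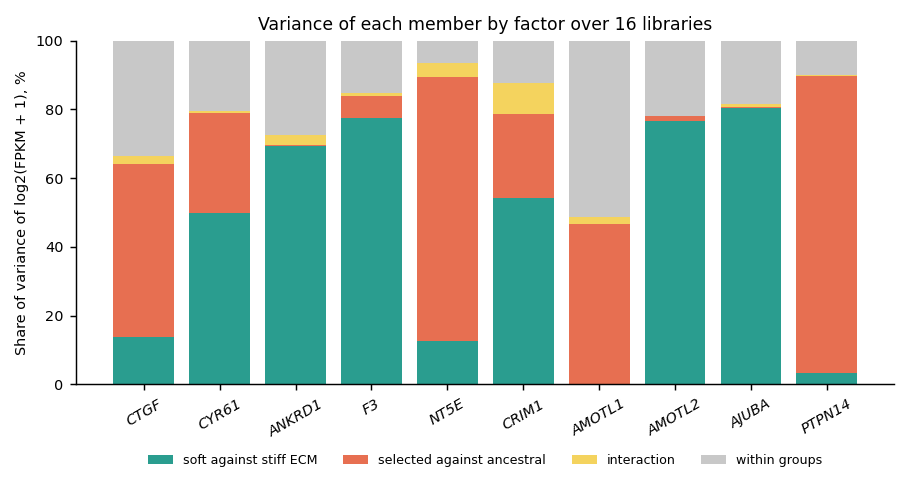
Share of the variance of log2(FPKM + 1) over 16 libraries, in percent (y axis), for each gene (x axis), stacked as ECM (all soft against all stiff libraries), selection, interaction and spread within groups. ECM fills most of the bars of AJUBA, F3, AMOTL2 and ANKRD1, and selection most of those of PTPN14 and NT5E.

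Within a group, many members also moved together in some libraries. Soft-selected replicate 2 was the highest of its group in 8 of 10 members (CTGF, CYR61, ANKRD1, F3, NT5E, CRIM1, AMOTL2 and AJUBA), where it was the highest for 28.6% of all tested genes, and its median deviation from the group mean over the members was 0.20 in log2 units. It was at the same time the lowest for AMOTL1. Stiff-selected replicate 4 was the lowest of its group in 7 of 10 members, against 24.6% of all tested genes. In ancestral cells no library was the highest or the lowest in more than 5 members.

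**Figure D5:**
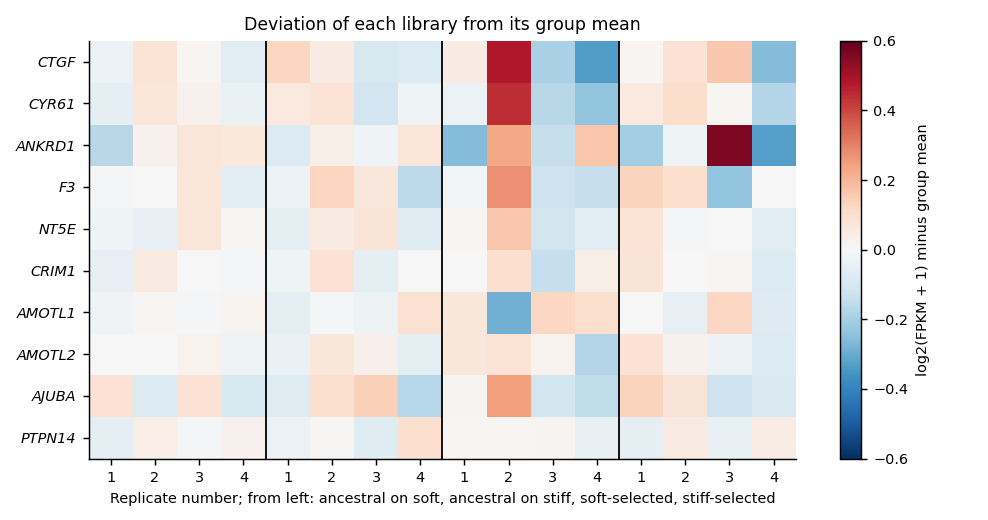
Deviation of log2(FPKM + 1) from the group mean (color, in log2 units, red above and blue below) for each gene (rows) in each library (columns, replicates 1 to 4 of the 4 groups). The column of soft-selected replicate 2 is blue for AMOTL1, near 0 for PTPN14 and red for the other 8 genes, and ANKRD1 in stiff-selected replicate 3 is the deepest red.

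CTGF and CYR61, both widely used as readouts of YAP activity, had unlike profiles. Likeness was measured as the root mean square difference between 2 genes over 16 libraries, in log2 units after centring each on its mean, among 12302 genes with a mean FPKM of at least 1. The points share libraries and groups, so that this is a description. CTGF and CYR61 differed by 0.425, more than either gene's own deviation from its mean (0.316 and 0.332). The genes nearest to CTGF were CCNB1IP1 (0.137), ABL2 (0.138) and SLC18B1 (0.152), and the nearest member was NT5E (0.185, rank 35). The genes nearest to CYR61 were CEBPG (0.111), WWC1 (0.122) and THBS1 (0.127), with F3 as the nearest member (0.158, rank 13). For ANKRD1 they were HKDC1 (0.144), ADAMTS6 (0.206) and FAM72A (0.213), with AJUBA as the nearest member (0.270, rank 68). HKDC1 and ADAMTS6 had mean levels of 1.85 and 2.92 FPKM, so that the pseudocount shrinks their deviations.

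Of 14 other YAP/TEAD target genes, 8 were called lower and 1 higher in soft-selected than in ancestral cells on soft ECM, where 15.4% and 21.5% of tested genes were, and the median was -0.25. NUAK2, a stress-activated kinase, was at -0.93 (limma adjusted p = 4.1e-07) and TGFB2, a TGF-beta ligand, at -0.83 (2.1e-07). FOXF2 (-0.72), IGFBP3 (-0.60), CCDC80 (-0.53) and GADD45A (-0.38) were also called lower. On stiff ECM, 5 were called lower and 1 higher (10.8% and 18.4% of tested genes, median -0.19), among them CCDC80 (-0.67), NUAK2 (-0.52) and TGFB2 (-0.51), with ARHGEF17 higher (0.26). Between soft-selected and stiff-selected cells, 5 were called lower and 0 higher (2.59% and 3.85% of tested genes, median -0.26): FJX1 (-0.65), AXL (-0.37), IGFBP3 (-0.37), LATS2 (-0.32) and TGFB2 (-0.32). In ancestral cells on soft against stiff ECM, AXL (-0.32) was called lower and RBMS3 (0.59) higher (3.87% and 7.54% of tested genes), and the median was 0.01. The receptor tyrosine kinase AXL was thus called lower on soft ECM in both ECM comparisons. AXL, TGFB2 and GADD45A each had 1 library apart from the 3 others of its group, AXL and TGFB2 in ancestral cells on stiff ECM and GADD45A in stiff-selected cells.

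The genes of the pathway itself were read from a list of 16. YAP1 had log2 fold changes of -0.02, 0.02, -0.01 and 0.03 in soft-selected against ancestral cells, stiff-selected against ancestral cells, soft-selected against stiff-selected cells and ancestral cells on soft against stiff ECM, none of them called. WWTR1, which encodes TAZ, was not called either, with 0.04, 0.01, 0.29 and 0.25 in the same order. Among their DNA-binding partners, TEAD1 was called higher in soft-selected (0.46, limma adjusted p = 5.3e-07) and in stiff-selected cells (0.49, limma adjusted p = 5.4e-07) than in ancestral cells, and TEAD2 likewise (0.76, limma adjusted p = 5.7e-08, and 0.56, limma adjusted p = 3.3e-06). In soft-selected cells, 6 of the 16 genes were called higher and 1 lower than in ancestral cells, where 21.5% and 15.4% of tested genes were, the others being the kinase STK4 (0.40), its partner SAV1 (0.44), the upstream regulator NF2 (0.40) and TEAD4 (0.31), with the LATS cofactor MOB1A lower (-0.16). In stiff-selected cells 3 were called higher, including STK4 (0.24, with replicate 3 apart at 52.2 FPKM), and 1 lower (MOB1A, -0.36), which is near the shares of all tested genes, 18.4% and 10.8%.

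Between the ECMs, the scaffold WWC1, which activates LATS kinases, was lower on soft ECM in ancestral (-0.49, limma adjusted p = 0.00275) and in soft-selected against stiff-selected cells (-0.68, limma adjusted p = 5.2e-04), with soft-selected replicate 2 at 30.5 FPKM where the others had 20.4 to 20.8. LATS2, itself a YAP target and in both lists, was lower in the soft-selected cells of that pair (-0.32, limma adjusted p = 0.0012). With these, 2 of 16 were called lower and 0 higher among selected cells, against 2.59% and 3.85% of tested genes. In ancestral cells on soft ECM, 2 were called lower, WWC1 and TEAD4 (-0.34), and 1 higher, the TEAD cofactor VGLL4 (0.48), against 3.87% and 7.54% of tested genes. The difference between the effects of selection called 0 of 14 and 0 of 16 in these lists.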

How the data were processed

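The data are 16 RNA-seq libraries of MDA-MB-231, and the 4 groups of 4 were taken from the titles of the samples. The deposited table holds the authors' FPKM for 19468 genes, and all its sample columns were used. STAR and hg19 are named, with no version, in the submitters' processing notes, while the counter and its annotation are not given in the sources used. Reads per gene were recovered from the steps between FPKM values, for 100% of genes (tolerance 0.001 reads). With the library total taken as the sum of recovered reads, the gene lengths this gave were divisible by 3 for 84.2% of tested genes.

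Values of log2(FPKM + 1) were tested with limma 3.58.1 (R 4.3.3) and a trended prior, in 1 fit of 4 group means, over the 12604 genes that reached 1 FPKM in 4 or more libraries. P-values are two-sided and adjusted by Benjamini-Hochberg over all 12604 genes, with calls at 0.01. Confidence intervals are for single genes and unadjusted. Fold changes on this scale understate changes of low genes. Promoters came from RefSeq (GRCh38.p14), for 8 of 10 members and 10 of 14 other target genes. Other steps used Python 3.11.15, numpy 2.4.6, pandas 2.3.3 and matplotlib 3.10.9. Read recovery and the fits were also run on simulated data. For the fits, the simulated spread was set the same for all genes and groups, unlike in these libraries. That run therefore does not show how the fits behave here.

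The members and lists (10 members, 14 other target genes, 16 pathway genes and the markers) were chosen with earlier results of these data known. All members are named, up to 6 genes per comparison of each other list by adjusted p, and the 3 nearest genes to CTGF, CYR61 and ANKRD1. Alternatives were another pseudocount (0.1), TPM, quantile normalization, median-of-ratios scaling, no filter or one on mean FPKM, a fit of only the groups compared, a prior with no trend, a replicate block, array weights, voom on recovered reads (total or median-of-ratios library sizes), and leaving out each library.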

Additional observations from a re-analysis of the deposited data

Results flagged for a closer look

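In groups of 4, a library was singled out when its gap to the nearest of the others exceeded Dixon's 95% critical share of the group's whole range, which chance alone gives in about 1 of 20 groups. Of 40 groups of member values, 2 were singled out, and of 156 groups over all listed genes, 8.

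AMOTL1 had 77 FPKM in soft-selected replicate 2, where the 3 others of the group had 98.9 to 103. This is the library that was highest of its group for 8 other members. PTPN14 had 88 FPKM in soft-selected replicate 4, where the others had 91.4 to 91.8, a gap that is small in size beside the difference from ancestral cells. WWC1 had 30.5 FPKM in soft-selected replicate 2, against 20.4 to 20.8 in the others. STK4 had 45.2 FPKM in soft-selected replicate 1, against 47.4 to 47.9, and 52.2 FPKM in stiff-selected replicate 3, against 44.4 to 44.5. AXL had 483 FPKM in ancestral replicate 1 on stiff ECM, against 559 to 563, and TGFB2 had 95.2 FPKM in ancestral replicate 3 on stiff ECM, against 112 to 114. GADD45A had 59 FPKM in stiff-selected replicate 1, against 45.8 to 47.1. For none of the listed genes did the effect of selection differ between soft and stiff ECM at an adjusted p under 0.01.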

How the results depend on the processing

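Of 50 member results (10 genes in 5 comparisons), 18 were called, all 18 kept their sign in the 12 settings and 16 fits without 1 library, and 10 stayed called in all of them. Of the 32 not called, 24 were called in none of the settings or fits without 1 library, and 8 changed sign in some. Members called lower in soft-selected against ancestral cells numbered 2, but 1 with no filter, with quantile normalization and with only the groups compared, and members called higher numbered 2 in place of 1 with TPM and array weights. In stiff-selected against ancestral cells, 2 in place of 1 were called lower with only the groups compared, array weights, the replicate block and voom by median of ratios. In soft-selected against stiff-selected cells, 3 in place of 6 were called lower with only the groups compared, 5 with no filter or no trend in the prior and 7 with array weights. In ancestral cells on soft against stiff ECM, 4 in place of 5 were called lower with a pseudocount of 0.1, no filter, quantile normalization or no trend (CYR61 lost), 6 with median-of-ratios scaling, only the groups compared or either voom fit (ANKRD1 gained) and 7 with array weights (ANKRD1 and CRIM1 gained). Leaving out 1 library gave 1 to 2 higher and 1 to 3 lower in soft-selected against ancestral cells, 2 to 3 higher and 1 to 2 lower in stiff-selected against ancestral cells, 4 to 7 lower between selected cells and 2 to 6 lower between ancestral cells, with 0 higher in both. The cause of these moves was not tested.

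Changes of sign were among values near 0. AMOTL2 in soft-selected against ancestral cells had -0.02 with median-of-ratios scaling and with voom by median of ratios. In stiff-selected against ancestral cells, AMOTL2 and AJUBA each had -0.04 with both and -0.02 with array weights, and F3 had 0.01 with quantile normalization. Without 1 library, AJUBA ranged there from -0.03 to 0.08 and ANKRD1 from -0.00 (without stiff-selected replicate 3) to 0.29, and AMOTL1 between selected cells from -0.01 (without soft-selected replicate 3) to 0.13. In the difference of the 2 effects of selection, AMOTL2 had 0.01 with TPM, 0.02 with both median-of-ratios settings, 0.00 with quantile normalization and voom by total, 0.05 with array weights and -0.03 to 0.06 without 1 library, and PTPN14 -0.02 to 0.04 without 1 library.

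Over all genes, median-of-ratios scaling moved the split of calls from 2708 higher and 1944 lower to 2131 and 2475 in soft-selected against ancestral cells, from 2313 and 1356 to 1666 and 2016 in stiff-selected against ancestral cells, from 485 and 326 to 387 and 434 between selected cells, and from 950 and 488 to 734 and 827 between ancestral cells, with shifts of the median of -0.07 to -0.02. Quantile normalization gave 589 higher and 599 lower between ancestral cells and 395 and 448 between selected cells, and voom by median of ratios gave 2052 lower in stiff-selected cells and 969 lower between ancestral cells. Array weights raised the calls to 4063 higher and 2591 lower in stiff-selected cells, 949 and 697 between selected cells, and 3619 and 2465 between ancestral cells, and only the groups compared lowered them to 79 and 47 between selected cells. Voom on recovered reads with total library sizes called 2750 higher and 1968 lower in soft-selected against ancestral cells, 2394 and 1377 in stiff-selected against ancestral cells, 533 and 323 between selected cells, and 1158 and 590 between ancestral cells. The difference between the effects of selection had 1 gene called with no filter and 2 with quantile normalization.

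No clear pairing of the libraries by replicate number was seen. Deviations of libraries with the same number correlated between -0.14 and 0.31, and 0 to 3 of 8 libraries correlated best with their own number. Groups of 4 libraries are too small to decide whether the numbers pair them. With the replicate number as a block, CYR61 was called lower in stiff-selected cells (limma adjusted p = 0.00953), which made 2 members lower, and no other count of members moved.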
